A study of Neurospora crassa with 30 samples.

Results

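The 60 genes described here are those of *Neurospora crassa*, a filamentous ascomycete, whose transcript level was highest in wild type (WT) mycelia exposed to L-sorbose and stood furthest above the level on any of 9 other carbon sources. They were chosen by their measured levels, from 9758 genes with a row of read counts. For each gene the count in a sample was divided by the sum over all genes and scaled to a common library total of 1e6 reads on genes, the unit called CPM, and the 3 replicates of a carbon source were averaged. The score of a gene was log2(mean CPM in sorbose + 1) minus log2(highest of the 9 other means + 1). Genes with a sorbose mean of at least 10 CPM and a score above 0 numbered 793, and the 60 with the highest scores were taken. Since the sorbose levels and the next highest means chose these genes, both are given below as a description, with no test.

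The study profiled mRNA of the WT strain FGSC 2489 after a switch in carbon source, with 30 samples in all and 3 replicates for each of 10 carbon sources. Mycelia were grown for 16 hrs at 25°C in constant light on 2% sucrose in Vogel's minimal medium (VMM), washed in VMM without carbon, and exposed for 4 hrs to VMM with a single carbon source. The 8 soluble carbon sources were sorbose, glycerol, the monosaccharides fructose, mannose and xylose and the disaccharides maltose, trehalose and cellobiose, each at 2 mM. The other 2 were polysaccharides, avicel (microcrystalline cellulose) and xyloglucan (a hemicellulose). Their concentration differs between the sources used here, 2% (w/v) for insoluble carbon in the series' design text and a lower value in the methods. The growth text in the labels names the carbon-free medium for every sample, so the carbon source was read from its own label. All samples carry the same genotype and the same sucrose preculture, and cultures kept without carbon were not analysed here, so a level in sorbose can be set only against other carbon sources. The methods call the 3 samples of a carbon source biological replicates, while the labels do not say that they came from separate cultures. In bulk mycelium, fewer cells of a kind and less RNA per cell cannot be told apart.

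L-sorbose is a ketohexose that differs from D-fructose only in the configuration at C-5. *N. crassa* uses it poorly as carbon, and it is widely used in plating media because it turns spreading mycelium into compact, densely branched colonies, with an altered wall and lowered β-1,3-glucan synthase activity. The fungal wall is a network of β-1,3-glucan and chitin, with α-1,3-glucan and mannoproteins, some held by a glycosylphosphatidylinositol (GPI) anchor and some not. Transglycosylases and glucanases of the wall cut and rejoin its polymers as hyphae extend and branch.

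Of the 9758 genes, 8501 had enough reads to be tested with edgeR's expression filter, and all 60 sorbose genes were among them. Libraries held 13018483 to 21925749 reads on genes, so the smallest count of any of the 60 genes in a sorbose sample was 134 reads (NCU07235). Reads outside genes made up 3.02%, 8.61% and 8.79% of the sorbose libraries and at most 6.23% of the others, and reads mapped to several places made up 3.86%, 5.36% and 6.05% against at most 4.08% elsewhere. These reads are in no gene's count, and when CPM was computed over all counted reads the rule took the same 60 genes. Transcripts of 5 genes linked to conidiation, the formation of asexual spores, were read beside the label of mycelia. Their summed level ran from 5158 to 7808 CPM in the sorbose samples, from 1036 to 1476 CPM in cellobiose and from 16170 to 29273 CPM in avicel. Most of it was the hydrophobin gene *eas*, with means of 5421, 1064 and 17548 CPM in these 3 sources. The others did not all follow it: *con-8* had 521 CPM in sorbose and 525 CPM in avicel. None of the 5 was at 0 in any sample, so these transcripts were present in every culture.

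The scores ran from 0.91 to 2.84 with a median of 1.14 on the log2 scale. Put as a ratio, the sorbose mean was 1.89 to 8.14 times the next highest mean, with a median of 2.23; it was more than 2 times that mean in 51 genes and more than 4 times in 6. The sorbose means themselves ran from 11.7 to 7837 CPM with a median of 124 CPM, 6 genes being over 1000 CPM, 31 between 100 and 1000 and 23 under 100, on a scale that is not per length of transcript. The coefficient of variation over the 3 sorbose samples of a gene had a median of 8.30% (range, 1.03% to 89.0%) and was above 30% in 3 genes, NCU00399, NCU05134 and NCU09168.

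**Figure D1:**
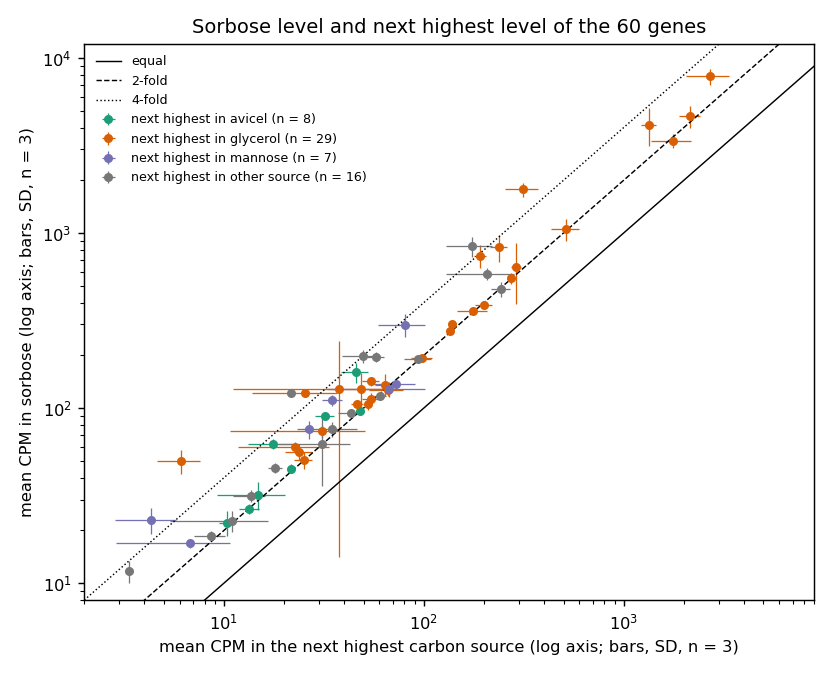
Mean CPM in sorbose (vertical, log axis) against mean CPM in the next highest carbon source (horizontal, log axis) for each of the 60 genes, with SD bars (n = 3 samples each) and lines for equal, 2-fold and 4-fold levels; colours give the next highest source. All points lie above the line of equality because of the choice, 29 of them have glycerol as the next source, and the long bars at about 130 CPM belong to NCU00399.

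In 58 of the 60 genes each of the 3 sorbose samples was above all 27 samples of the other carbon sources, and 4.66% of the tested genes showed this. In NCU00399 the lowest sorbose sample held 45.5 CPM while glycerol replicate 1 held 68.3 CPM, and in NCU09168 the lowest sorbose sample held 32.9 CPM while maltose replicate 2 held 39.0 CPM. All 60 genes were highest in sorbose within replicate 1, within replicate 2 and within replicate 3, as were 12.1%, 11.4% and 11.1% of the tested genes. These counts follow in part from the choice, so the rule was also run on the samples of 2 replicate numbers and read in the third. Of the 60 genes it then took, 59, 60 and 60 were highest in sorbose in the left-out replicates 1, 2 and 3, and 53, 52 and 55 of them belonged to the 60 genes described here. The median score in the left-out samples was 1.14, 1.16 and 1.03. Whether the left-out samples came from cultures separate from the others is not given in the labels, so these values are a description.

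The rule took genes down to a score just above 0.9. The members with the lowest scores were NCU06625 (0.93), NCU09262 (0.92) and NCU02679 (0.91), a predicted carboxylesterase. The genes just below them, not taken, were NCU02138 (0.89), NCU09322 (0.87) and NCU01476 (0.86), so the edge of the list falls within a continuous run of scores.

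Together the 60 genes took 3.29% ± 0.268 (SD, n = 3) of all gene counts in sorbose. They took 1.23% ± 0.0895 in glycerol, 0.666% ± 0.276 in mannose and 0.617% ± 0.0623 in xyloglucan, and 0.351% (avicel) to 0.458% (cellobiose) in the remaining 6 sources. Glycerol also came next with the 6 genes over 1000 CPM left out, when the other 54 genes took 1.01% ± 0.0537 in sorbose, 0.348% ± 0.0219 in glycerol and 0.134% to 0.206% elsewhere.

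Only 6 of the 60 genes have a symbol in the RefSeq annotation of assembly NC12, and wall or secreted proteins make up 4 of these. The annotation supplied with the study describes 41 of the 60 genes, 23 of them as hypothetical proteins and 18 with another name, and the other 19 were not matched to a description there. That annotation covers only genes in the study's own lists, so a gene without a match may still have a known product. Genes are named here if they had one of the 10 highest scores, had a symbol, lay next to another of the 60 genes, lay at the edge of the list, or had one of the largest changes in a comparison with fructose. Further genes with a described product were chosen after their values were seen.

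Of the 6 genes over 1000 CPM in sorbose, 4 encode wall or secreted proteins, the same 4 as among the genes with a symbol. The share of such proteins among all genes at this level was not counted. *ccg-14* (NCU07787, chromosome V), a clock-controlled gene for a small secreted protein of the cerato-platanin family, held 8232, 8389 and 6889.7 CPM in the 3 sorbose samples. Glycerol came next with 2065, 2685 and 3369.7 CPM, and avicel was lowest with a mean of 82.9 CPM. The lowest sorbose sample was thus well above the highest glycerol sample, and the range over carbon sources was wide.

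*ccg-13* (NCU08907, chromosome V), also named among the non-anchored wall proteins, held 5153, 4129 and 3166 CPM in sorbose and 1313, 1466 and 1238 CPM in glycerol. Its mannose samples held 2179, 29.7 and 1215 CPM, so mannose replicate 2 stood far below the other 2 samples of that sugar. The same mannose sample was the lowest of its 3 in 40 of the 60 genes, and in 39.6% of the tested genes.

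*ncw-1* (NCU05137, chromosome VI), a non-anchored cell wall protein, held 5320, 4556 and 4045 CPM in sorbose against 2435, 2114 and 1903 CPM in glycerol. *acw-4* (NCU09263, chromosome I), an anchored cell wall protein, held 3043, 3665 and 3361 CPM in sorbose against 1446, 1646 and 2205 CPM in glycerol. In both, sorbose and glycerol did not overlap, and the ratio of their means was 2.16 for *ncw-1* and 1.90 for *acw-4*. The hypothetical protein gene NCU07569 belongs with these 4 in the size of its counts, with 1957, 1662 and 1697 CPM in sorbose, a mean of 313 CPM in glycerol and 32.2 CPM in avicel. The remaining gene over 1000 CPM, NCU05686, had 1050 ± 149 CPM in sorbose and 513 ± 81.0 CPM in glycerol.

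NCU00399 encodes a homologue of PhiA, a wall protein known from *Aspergillus nidulans*, where it is needed for normal phialides. Its sorbose samples held 259, 81.0 and 45.5 CPM, the widest spread of the 60 genes, and its score of 1.74 dropped to 0.73 without sorbose replicate 1. Glycerol held 68.3, 20.4 and 24.4 CPM, so the samples of the 2 carbon sources overlapped.

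**Figure D2:**
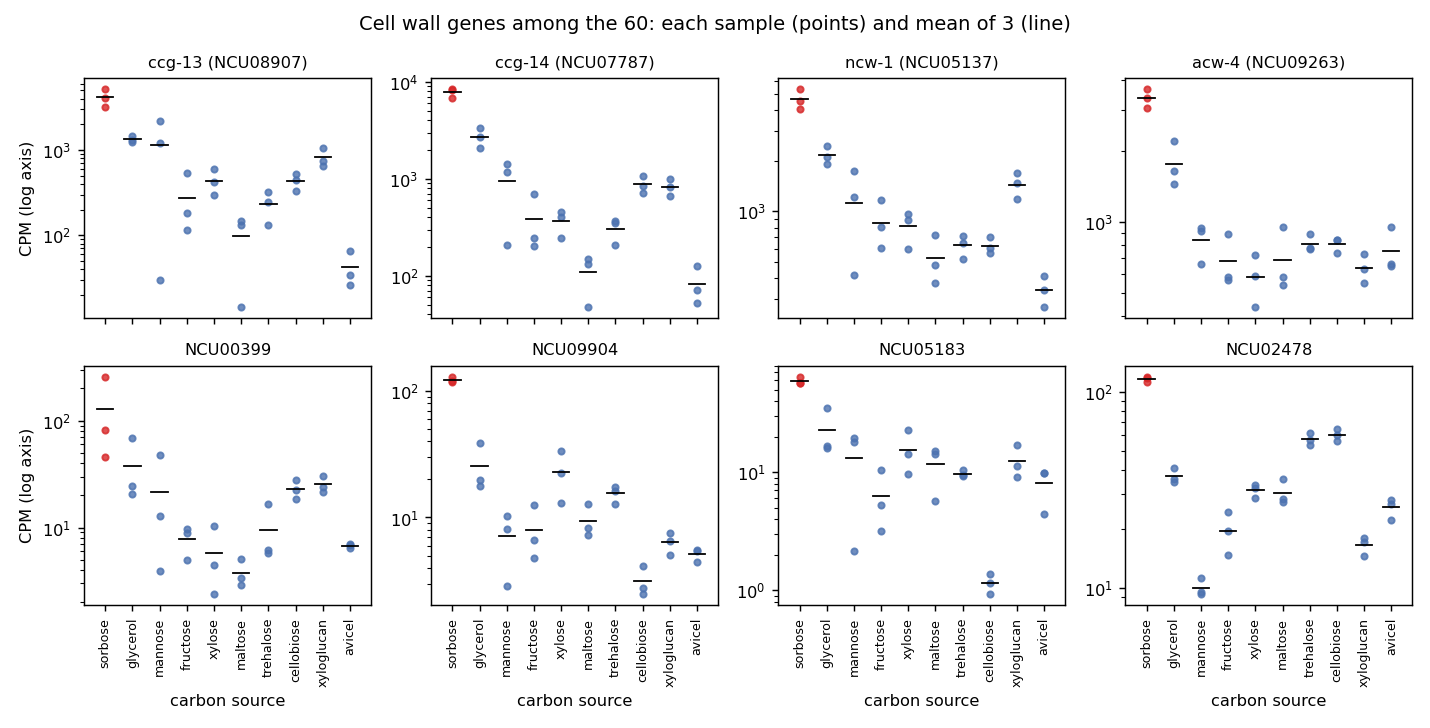
CPM (log axis, each panel with its own range) of 8 genes for wall or secreted proteins and wall polymer enzymes in every sample, by carbon source; red points are sorbose samples, blue points the other samples and black lines the means of 3. The red points lie above all blue points except in NCU00399, where the lowest sorbose sample (45.5 CPM) is under the highest glycerol sample (68.3 CPM).

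Enzymes acting on wall polysaccharides were another group among the described genes. NCU09904, annotated as a glucan 1,3-beta-glucosidase of glycoside hydrolase family GH16, which holds enzymes that cut or cross-link β-glucan, held 130, 117 and 120 CPM in sorbose. The next means were 25.3 ± 11.4 CPM in glycerol and 23.1 CPM in xylose, and cellobiose was lowest with 3.12 CPM. NCU09906, the next gene of the files on the chromosome, is listed as an unclassified glycosyltransferase, which does not tie it to the wall. It held 639, 562 and 557 CPM in sorbose, 206 ± 76.6 CPM in xylose and 34.1 CPM in cellobiose. The 2 neighbours thus had their lowest means in the same sugar, while the next highest source differed.

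NCU02478, an α-1,3-glucan synthase, held 120, 118 and 112 CPM in sorbose. Its next highest means were 60.5 ± 4.26 CPM in cellobiose and 57.2 CPM in trehalose, and the lowest was 10.0 CPM in mannose. Among the wall genes, *ccg-13*, *ccg-14*, *ncw-1*, *acw-4*, NCU00399 and NCU09904 had glycerol next, while NCU02478 had cellobiose. NCU09906, not counted among them, had xylose. NCU05183, assigned to family GH128, a family with β-1,3-glucanases, held 56.7, 57.4 and 64.7 CPM in sorbose, 22.6 ± 10.8 CPM in glycerol and 1.15 CPM in cellobiose. The carbohydrate esterase gene NCU04526 (family CE3) is not counted here among the wall genes. It had a mean of 105 ± 8.61 CPM in sorbose and 52.7 ± 2.06 CPM in glycerol and at most 17.2 CPM in the other 8 sources.

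The remaining genes with the highest scores have little annotation in the sources used here. NCU00607, which was not matched to a description, had the highest score, 2.84. It held 58.1, 48.4 and 42.7 CPM in sorbose, 4.40, 6.83 and 7.10 CPM in glycerol and 0.241 to 1.54 CPM on average in the other 8 sources. The hypothetical protein genes NCU09832 and NCU03646 had scores of 2.44 and 2.26. In NCU09832 sorbose gave 122 ± 1.26 CPM, and trehalose and maltose both 21.5 CPM. In NCU03646 sorbose gave 838 ± 107 CPM and maltose 174 ± 44.5 CPM. The predicted monooxygenase NCU10031 held 23.0 ± 3.97 CPM in sorbose and 2.04 to 4.32 CPM elsewhere, a narrow range over the other 9 sources. The predicted lysophospholipase NCU03768, of a class of enzymes that release the remaining fatty acid from lysophospholipids, held 198 ± 16.7 CPM in sorbose and 49.5 ± 10.7 CPM in trehalose.

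Some further genes with a described product, picked after their values were seen, encode enzymes or transporters outside the wall. *nit-3* (NCU05298, chromosome IV) encodes nitrate reductase, the enzyme that turns nitrate into nitrite, and VMM holds nitrogen as ammonium nitrate. It held 91.7, 150.4 and 141 CPM in sorbose, 31.8, 62.3 and 51.8 CPM in glycerol and 8.34 CPM on average in maltose. All sorbose samples were above all glycerol samples. Of the 5 genes named *nit* in the files, *nit-3* was the only one highest in sorbose. *nit-6*, the nitrite reductase gene of the next step, had a mean of 1072 ± 177 CPM in sorbose and 1149 ± 187 CPM in xylose, which differed by less than their SD.

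Choline sulfatase (NCU08364), which frees sulfate from choline sulfate, had a mean of 358 ± 15.5 CPM in sorbose and 176 ± 30.1 CPM in glycerol. The urea active transporter gene NCU09909 had 18.6 ± 1.30 CPM in sorbose and 8.63 ± 1.55 CPM in maltose. Among ion transporters, a Ca2+/H+ antiporter (NCU06366) had 389 ± 18.8 CPM in sorbose and a member of the anion exchanger family (NCU02122) had 193 ± 7.65 CPM, with glycerol next in both at 199.8 ± 18.9 and 97.9 ± 12.0 CPM. The major facilitator NCU06341 had 304 ± 6.66 CPM in sorbose against 139 ± 4.84 CPM in glycerol. The remaining gene with a symbol, *msh4* (NCU10895, chromosome I), encodes a MutS homologue that acts in meiotic recombination in other fungi. It had 22.8 ± 3.22 CPM in sorbose and 10.9 ± 5.58 CPM in cellobiose.

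**Figure D3:**
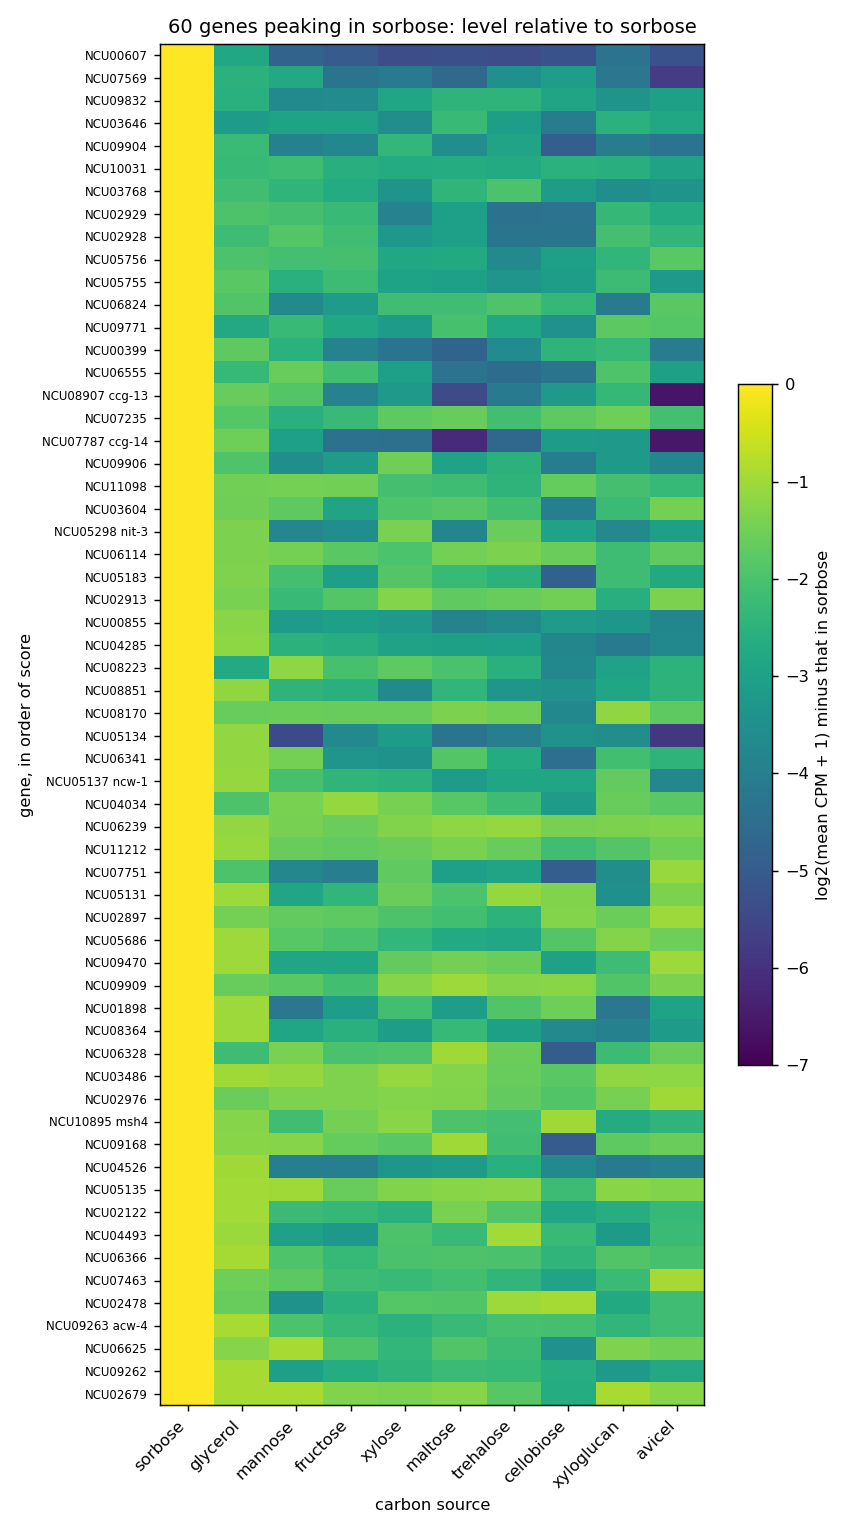
Heat map of the 60 genes (rows, in order of score) over the 10 carbon sources (columns); the colour is log2(mean CPM + 1) minus the value in sorbose, so sorbose is 0 for every gene and darker cells are lower. The glycerol column is the palest beside sorbose for 29 genes, and cellobiose is the darkest for 24.

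Over the 9 other carbon sources the 60 genes did not share a single pattern, but glycerol was the most frequent next highest source. Glycerol had the next highest mean in 29 of the 60 genes (48.3%), avicel in 8, mannose in 7, maltose and trehalose in 4 each, xyloglucan in 3, xylose and cellobiose in 2 each and fructose in 1. Of the other 733 genes that met the rule without reaching the 60, 23.3% had glycerol next, and of all tested genes 8.96% had their highest mean of the 9 in glycerol. In 15 of the 60 genes each glycerol sample was above all 24 samples of the 8 sources other than sorbose and glycerol, and 1.60% of the tested genes showed this. The next highest mean entered the score, so these counts are a description of the choice. The lowest mean fell in cellobiose for 24 of the 60 genes, in xyloglucan for 11, in trehalose for 8 and in glycerol for none. In the other 733 genes cellobiose was lowest in 47.1%, xyloglucan in 8.87%, trehalose in 12.3% and glycerol in 1.36%, and over all tested genes these shares of the 9 sources were 28.5%, 7.43%, 19.7% and 4.14%, so a rarely lowest glycerol was not particular to the 60 genes.

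Sources other than sorbose were compared by edgeR's quasi-likelihood test, which models the spread of counts between replicates, in 1 fit to all 30 samples. The rule used the highest of the 9 means, which for 29 genes is that of glycerol, for 8 that of avicel, for 4 that of maltose and for 2 that of cellobiose, so a high value of such a gene in its next source is given without a p. Fructose, the epimer of sorbose, served as the reference for glycerol, avicel, maltose and cellobiose, so these 4 comparisons share the fructose samples. For 1 gene, NCU04034, fructose itself was the next highest source, so a low value of this gene against fructose is likewise affected by the choice. A gene was called at a fold change above 2 and a Benjamini-Hochberg adjusted p below 0.01 over the 8501 genes.

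Of the 60 genes, 59 varied among the 9 other sources, which is near the background of 91.7% of the tested genes. The exception was NCU10031, whose means over these sources were given above. In glycerol, 28 of the 60 genes were higher than in fructose, where 7.99% of the tested genes were, and none was called lower, where 5.49% were. Of the 28 genes, 21 had glycerol as the next highest source, so that their glycerol mean had entered the choice, and 7 were among the 31 genes with another source next. The counts over all 60 genes are therefore a description and are not read against the background. The number of genes below fructose at an unadjusted p under 0.05 was 1, and DESeq2 also called 28 higher and 0 lower. The median log2 fold change of the 60 genes was 0.93, with 52 above 0, beside a median of -0.0020 over all tested genes. Leaving out single libraries gave 23 to 28 genes higher in glycerol, and 1 gene was called lower without glycerol replicate 2 and 2 without fructose replicate 1.

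The largest increases in glycerol were those of NCU00607 (log2 fold change 3.30 ± 0.38 SE), NCU04526 (3.19 ± 0.26), *ccg-14* and NCU07751, of which NCU07751 alone had another source, avicel, next. *ccg-14* was higher by 2.81 ± 0.54 on the log2 scale, from 247, 697 and 204 CPM in fructose, so the fructose samples themselves differed widely. Of the other wall genes, *acw-4* (1.36), *ncw-1* (1.31), NCU09904 (1.64), NCU05183 (1.84) and NCU00399 (2.23) were also called higher in glycerol, as were *nit-3* (2.26) and the choline sulfatase gene (1.53). *ccg-13* was not called, with 1313, 1466 and 1238 CPM in glycerol and 185, 531 and 115 CPM in fructose. Fructose replicate 2 was the highest of its 3 samples in 44 of the 60 genes and in 40.2% of the tested genes, and without it 28 genes were called higher in glycerol, 27 of them shared with the 28 above.

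**Figure D4:**
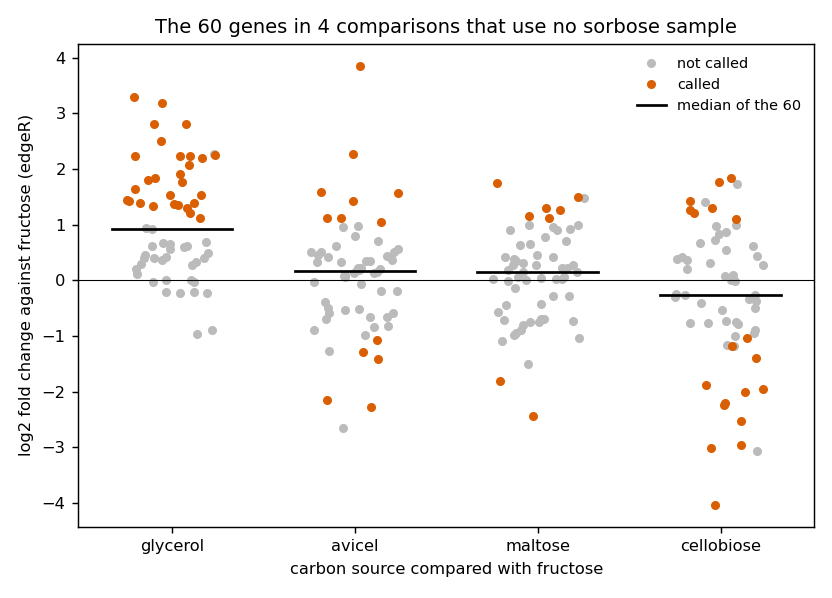
Log2 fold change of each of the 60 genes against fructose (vertical, edgeR) in glycerol, avicel, maltose and cellobiose; orange points were called, grey points were not, and black lines are the medians of the 60 genes. In glycerol all 28 called genes lie above 0 and the median is 0.93; in the other sources called genes lie on both sides and the medians are 0.17, 0.16 and -0.26.

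In avicel, 8 of the 60 genes were higher than in fructose and 5 were lower, where 8.87% and 6.36% of the tested genes were, and the median was 0.17. Of the 8, 5 had avicel as the next highest source. With scaling by library size alone, 7 were higher and 8 lower, so the balance of the directions turned with the scaling. The increases were led by NCU07751 (3.85), NCU09470 (2.28) and NCU03604 (1.59), genes for which the annotation used here names no product. The decreases were led by NCU05134, which fell by 2.28, *ccg-14*, which fell by 2.15 ± 0.53 (edgeR, adjusted p = 0.0015), and NCU07569, which fell by 1.40, and they also held *ncw-1* and *msh4*. *ccg-14* thus moved in opposite directions in glycerol and avicel against the same fructose samples. The count of 5 was 2 without avicel replicate 3 and 3 without fructose replicate 2.

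In maltose, 6 of the 60 genes were higher and 2 lower, where 9.75% and 9.22% of the tested genes were, and the median was 0.16. NCU09470 (1.75), NCU06341 (1.49) and the urea transporter gene NCU09909 (1.30) rose most, and NCU06555 (fell by 2.43) and *ccg-14* (fell by 1.80) were the 2 called lower. The count of 6 was 10 without fructose replicate 2. The count of 2 was 1 without fructose replicate 2, maltose replicate 1 or maltose replicate 2, and 5 without fructose replicate 1 or maltose replicate 3.

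In cellobiose, 7 of the 60 genes were higher and 12 lower, where 9.94% and 12.0% of the tested genes were, and the median was -0.26. The α-1,3-glucan synthase gene NCU02478, for which cellobiose was the next highest source, had the largest increase (1.83 ± 0.13), from 14.7, 24.3 and 19.6 CPM in fructose to 56.4, 60.1 and 64.9 CPM in cellobiose, followed by NCU01898 (1.76) and NCU07569 (1.43). NCU09168 (-4.03), NCU08223 (-3.01) and NCU06328 (-2.96) fell most. NCU09168 held 15, 24 and 20 reads and NCU08223 only 5, 7 and 8 reads in the cellobiose libraries, so the size of these changes rests on few reads. In this comparison the split depended on scaling: edgeR's TMM factors gave 845 genes higher and 1021 lower over all tested genes (45.3% and 54.7% of calls), while scaling by library size alone gave 629 and 1407 (30.9% and 69.1%), with 6 and 18 of the 60 genes. Across the 4 comparisons, 43 of the 60 genes were called in at least 1, as were 39.6% of the tested genes, and 17 were called in none. The 43 include genes called higher in their own next source, whose mean had entered the choice. This count is therefore also a description and is not read against the background.

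Lists of other wall genes and of sugar-related genes were compared in sorbose with the mean of the 9 other sources. The lists were drawn up with earlier results known and hold none of the 60 genes, so they leave out the genes highest in sorbose and their counts and medians do not describe the whole class. The α-1,3-glucan synthase gene NCU02478, for instance, is one of the 60, while NCU08132, of the same kind, is in the list with a log2 fold change of -0.21. In that comparison 4.25% of the tested genes were called higher and 2.91% lower, and the median log2 fold change was -0.01. Because the same sorbose levels ranked all genes by the rule, p-values of listed genes are no independent support for the choice of the 60. Of 12 genes for the synthesis of wall polymers, *chs-5* (chitin synthase, 1.03 ± 0.06; edgeR, adjusted p = 1.1e-12) and *gel-3* (β-1,3-glucanosyltransferase, 1.14 ± 0.12; edgeR, adjusted p = 3.8e-08) rose, 10 were not called and the median was 0.47. The β-1,3-glucan synthase gene *do*, with a log2 fold change of 0.65 ± 0.07, was under the fold threshold. The next highest source lay closer to sorbose than the mean of the 9. It was glycerol for *chs-5* (596 ± 31.8 CPM in sorbose, 382 ± 21.0 CPM in glycerol) and *gel-3* (1400 ± 181 and 1062 ± 93.8 CPM). For *do* it was trehalose (832 ± 6.06 CPM in sorbose, 710 ± 90.3 CPM in trehalose). Of 7 genes of the cell wall integrity pathway, which relays wall stress through Rho1, protein kinase C and a MAP kinase cascade, none was called, and the largest value was 0.57 ± 0.06 for the wall sensor gene *wsc-1*. This gene, *mek-1* (0.50 ± 0.08) and NCU02558 (0.35 ± 0.10) passed the adjusted p but not the fold threshold, and the others passed neither.

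Of 12 sugar transporter genes, 3 rose in sorbose and 4 fell. The high affinity glucose transporter gene *hgt-1* rose by 2.06 ± 0.12 (edgeR, adjusted p = 1.7e-12), to 5936 ± 532 CPM, but maltose had nearly as much, 5122 ± 376 CPM. NCU04537 (1.76) and NCU05627 (1.14) were the others, and both had a mean as high or higher in another sugar. The cellodextrin transporter gene *cdt-2* (-3.59), NCU01633 (-3.29), NCU01132 (-1.80) and NCU00821 (-1.09) were the 4 that fell. The mean of the other sources is carried by a few of them in some of these genes: NCU01633 had 44.0 CPM in sorbose, 3592 in cellobiose and 20.5 in mannose, and NCU01132 had 12.4 CPM in sorbose and 7.02 in trehalose, so sorbose was not the lowest source for either. *sor-4* (NCU02582), a glucose transporter-like gene whose mutants resist sorbose, was not called, with 142 ± 2.06 CPM in sorbose and 177 ± 4.16 CPM in xyloglucan. Of 7 genes for pentose and polyol enzymes, *xr* (xylose reductase, fell by 2.96) and *xyk-1* (xylulose kinase, fell by 1.53) were lower in sorbose and none was higher. For *xyk-1* sorbose (34.7 CPM) was above trehalose (29.9 CPM) and far below xylose (715 CPM), while for *xr* sorbose (19.3 CPM) was below every other source. Of the 5 conidiation markers, *con-10* fell by 1.38, none rose, and the hydrophobin gene *eas* had 5421 ± 1318 CPM in sorbose. For *con-10* sorbose (31.5 CPM) was level with glycerol (31.3 CPM), above trehalose (21.7 CPM) and cellobiose (16.9 CPM) and below mannose (226 CPM).

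The wall proteins named *acw* or *ncw* were looked at as a family after 3 of them were seen among the 60 genes, so no test was run. Of the 19 in the files, 8 had their highest mean in sorbose. Among the 7216 genes with at least 10 CPM in their highest carbon source, 793 did. The family was picked for its members among the 60, so the 8 are given beside this background without a test. Beside *ncw-1*, *acw-4* and *ccg-13*, the 8 included *ncw-3*, at rank 66 by the same score, with 2829 ± 197 CPM in sorbose and 1567 ± 504 CPM in glycerol. They also included *acw-8* and *acw-5* at ranks 123 and 146, and *acw-12* and *ncw-5* at ranks 299 and 397. *acw-12* had 200 ± 19.1 CPM in sorbose and 166 ± 52.6 CPM in mannose. *ncw-5* had 401 ± 54.2 CPM in sorbose and 350 ± 133 CPM in glycerol. In both, the means differed by less than the larger SD. The other 11 peaked elsewhere. *ncw-2*, for instance, had 37.4 ± 3.03 CPM in sorbose and 377 ± 48.0 CPM in cellobiose. The median log2 fold change of the 19 in sorbose against the mean of the other sources was 0.42, so the family as a whole was not uniformly high in sorbose.

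Of the 60 genes, 13 lay next to, or within 2 genes of, another of the 60, in 5 runs. The same count was not made for other genes, so whether 13 is many was not tested. The longest was on chromosome VI (NC12, 3599193 to 3647731), where *ncw-1*, NCU05136, NCU05135, NCU05134, NCU05133, NCU05132 and NCU05131 all had their highest mean in sorbose. Of these 7 genes, 4 belong to the 60, and NCU05136, NCU05133 and NCU05132 stood at ranks 95, 98 and 172. The run was found through its members, so its genes are not read against the 793 of 7216 genes highest in sorbose. Their levels differed widely, from 50.5 ± 5.87 CPM for NCU05135 to 4640.3 ± 642 CPM for *ncw-1*, and NCU05134 was variable, with 434, 903 and 570.5 CPM in the sorbose samples.

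Near the start of chromosome I (17441 to 48154) lay NCU09904, NCU09906 and the urea transporter gene NCU09909, with the nearly silent NCU09907 (1.88 CPM) and NCU09908 (0 reads in sorbose) in between. Elsewhere on chromosome I lay the neighbours NCU02929 and NCU02928 (8660308 to 8668208), which were not matched to a description. NCU02929 held 682, 867 and 678 CPM and NCU02928 283, 352 and 264 CPM in sorbose, so the same replicate was highest in both, and both had low means in trehalose and cellobiose. *acw-4* and NCU09262 (9365024 to 9371705) formed the fourth run. On chromosome VII (3720774 to 3723972) lay NCU05755, a hypothetical protein gene with 829 ± 148 CPM in sorbose, and NCU05756, a predicted M4 peptidase with 161 ± 21.0 CPM. Whether reads of such close neighbours could be assigned to the wrong gene was not tested. Over the genome, 21 of the 60 genes (35.0%) lay on chromosome I, which holds 24.1% of the genes in the files.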

How the data were processed

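The authors extracted RNA from mycelia, sequenced mRNA libraries on an Illumina HiSeq2000, kept reads that passed a base quality filter (FASTX-Toolkit), aligned these by TopHat2 2.0.4 to predicted transcripts of the OR74A genome and counted them with HTSeq 0.6.0. The deposited values are raw counts per gene, with reads outside genes, ambiguous or mapped to several places given as separate totals and left out of library sizes here. Near-identical genes can be undercounted, and whether counting used strand is not given in the sources used here. Libraries were multiplexed in pools of 9, but which shared a pool is not given.

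Samples were grouped by the carbon source in the labels. CPM and scores were computed in Python 3.11.15 with pandas 2.3.3. Counts were fitted in R 4.3.3 with edgeR 4.0.16 (filterByExpr, TMM factors from 0.893 to 1.06, 1 mean per carbon source, quasi-likelihood F tests), and DESeq2 1.42.0 was an alternative. Adjusted p-values are Benjamini-Hochberg over the 8501 genes tested in each comparison, and standard errors come from the F statistic. The fold change threshold of 2 and the adjusted p of 0.01 follow the study's methods. The fit and the rule were run on simulated counts as a check of the code. The spread there was set the same for every gene, so that run does not measure their accuracy on these samples.

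No 2 replicates agreed within sampling noise (chi-square per degree of freedom from 5.36 to 224 over all replicate pairs). Positions, lengths and symbols came from the RefSeq table of assembly NC12, which held 9757 of the 9758 gene identifiers, and descriptions from the study's supplementary annotation. The 60 genes and all gene lists were chosen with earlier results of these data known.

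Alternatives were other scaling, pseudocounts of 0.1 and 5, minima of 1 and 50 CPM, medians, no filter on low counts, library size without TMM, DESeq2, a replicate block, a fit without sorbose samples, and leaving out replicates. Leaving out single libraries of the sources compared or of glycerol, and CPM over all counted reads, were added after seeing the data.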

Additional observations from a re-analysis of the deposited data

Results flagged for a closer look

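The share of reads outside genes, which no comparison above uses, was 8.79% in its highest sorbose library and 8.61% and 3.02% in the other 2, while the highest library of the other carbon sources had 6.23%. With these reads included in the library total, the rule took the same 60 genes.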

How the results depend on the processing

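No score of the 60 genes changed sign under any alternative. The lowest score was 0.58, for NCU06625 without replicate 2 of every source. The rule took 48 (minimum of 50 CPM) to 60 of the same genes under the 7 alternatives that kept all samples, and 52 to 58 when replicates were left out.

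The 28 genes higher in glycerol than in fructose stayed at 28 under 5 alternatives and ran from 20 to 29 when replicates were left out. Counts of genes called lower were less stable. Without TMM, genes lower in avicel numbered 8 in place of 5 (7 higher in place of 8), and 2 to 7 were lower when replicates were left out (2 without avicel replicate 3, 3 without fructose replicate 2). Genes lower in glycerol numbered 0 to 2, genes higher in maltose 6 to 11 and genes lower in maltose 1 to 5 when replicates were left out. The whole replicate numbers gave 3 and 2 genes lower in avicel without replicates 1 and 3, 1 gene lower in glycerol without replicate 1, 11 higher and 1 lower in maltose without replicate 2, and 4 lower in maltose without replicate 3. In each of these the fit had fewer samples, and the cause was not tested.

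Replicate numbers were not taken to pair the samples, since the labels tie them to no shared culture or batch and not every pair correlated. Over 135 pairs of samples with the same number in different sources, their deviations from the mean of each source had an average correlation of 0.099 (range, -0.37 to 0.65), and 59 were over 0.1; 11 of the 30 samples correlated best with their own number. Replicate 1 nevertheless had the lowest share of reads outside genes in 7 of the 10 sources (range, 2.43% to 3.72%), so a technical factor linked to the number was not tested beyond the block. With the replicate block, 8 genes were higher and 13 lower in cellobiose in place of 7 and 12, and the counts in glycerol (28 and 0), avicel (8 and 5) and maltose (6 and 2) were as without it.

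Depth limits the genes with few reads off sorbose, such as NCU07751 with 1, 3 and 2 reads in the cellobiose libraries. No alternative addresses the single concentration and single time point.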
